A study of Mus musculus with 36 samples.

Results

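The cytosolic ribosomal proteins are the proteins that, with ribosomal RNA, build the small (40S) and large (60S) subunits of the ribosome outside mitochondria. They were taken from the deposited gene table by name, as every gene whose symbol starts with Rpl or Rps followed by a digit, or is Rplp0, Rplp1 or Rplp2, without pseudogenes marked -ps and without the Rps6k kinases. This gave 92 of the 25626 listed genes, 54 named as large-subunit and 38 as small-subunit genes. Of these, 87 (51 and 36) had enough reads to be tested. The name rule also takes retrocopies and paralogs, and Rps19bp1, which encodes a binding partner of a ribosomal protein and not a ribosomal protein.

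Each ribosome carries nearly all of these proteins in equal number, and their mRNAs are among the most abundant of a cell. Many of them begin with a terminal oligopyrimidine (TOP) tract, a C followed by a run of pyrimidines at the cap, which lets the mTOR kinase pathway control their translation. The heart is unusual in that cardiac and skeletal muscle also make a muscle paralog of the large-subunit protein Rpl3, named Rpl3l.

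RNA from whole mouse hearts was sequenced in 6 groups of 6 mice. The mice were cSirt4-Tg (Tg), named after the mitochondrial sirtuin Sirt4, or controls (Con). They had transverse aortic constriction (TAC), a surgical narrowing that makes the heart pump against higher pressure, or sham surgery, and TAC mice received MitoQ (MQ), an antioxidant directed to mitochondria, or vehicle. The groups were Tg-TAC-MQ (cSirt4-Tg, TAC, MitoQ), Con-TAC-MQ (control, TAC, MitoQ), Tg-TAC (cSirt4-Tg, TAC, vehicle), Con-TAC (control, TAC, vehicle), Tg-Sham (cSirt4-Tg, sham, vehicle) and Con-Sham (control, sham, vehicle). The study asked by which pathways oxidants from mitochondria may worsen heart disease in cSirt4-Tg mice. For the promoter of the transgene, the age of the mice and the dose and length of treatment, the sources used here give nothing.

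Values are normalized read counts as deposited by the authors, that is, reads per gene divided by 1 size factor per library. A difference is a log2 difference of log2(value + 1), the named group minus the other, with its standard error (SE), and a gene was called when its adjusted p from limma, over the 16275 genes tested, was under 0.05. Means carry the SD with n = 6 per group. The p-values rest on 1 moderated spread per gene, pooled over the labelled samples within all 6 groups. They do not rest on the spread of the groups compared alone, and spreads differed between groups.

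The libraries held 14.8 to 60.01 M reads on the listed genes, with a median of 28.4 M. Sirt4 itself averaged 349 ± 22.5 in Tg-TAC-MQ, 353 ± 18.6 in Con-TAC-MQ, 362 ± 57.8 in Tg-TAC, 341 ± 49.6 in Con-TAC, 377 ± 48.0 in Tg-Sham and 412 ± 96.6 in Con-Sham hearts, so no Tg group differed from its control group by more than the spread between hearts, and every genotype direction below rests on the labels. Cardiomyocyte markers were high in every library, as the tissue label says, and none of the 12 was at 0 in every library of a group. Some libraries stood apart from their group. Tg-TAC 6 had the highest summed cardiomyocyte markers of its group, 3.25 M against 1.33 to 2.29 M in the other Tg-TAC hearts, while Con-TAC 6 had 1.67 M against 2.45 to 3.12 M, and Con-TAC-MQ 3 had 1.81 M against 2.57 to 3.14 M. Tg-TAC 4 held far more lymphocyte and adipocyte marker reads than any other library. In whole tissue, fewer cells of a type and less RNA per cell cannot be told apart.

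Among the members, levels can be compared only per length, so counts were divided by the length of the principal coding transcript for the 85 members that have one. Per kilobase and averaged over all 36 libraries, the stalk protein Rplp1 was the highest, with 12946 normalized counts per kb. Rps2, a 40S protein at the mRNA entrance, came next with 12393, then Rps14 with 11634 and Rps15 with 10702. This order was not the same in every group, as Rps2 had 13269 ± 2391 and Rplp1 12475 ± 637 in Con-Sham hearts, a gap within the spread. Rpl3l ranked 30 of 85 with 4427 and Rpl3 ranked 65 with 1937. In Tg-TAC hearts the order of these paralogs was reversed, with 2503 ± 1822 for Rpl3l and 3055 ± 866 for Rpl3 per kb. The lowest were Rps23rg1, Rpl39l and Rpl36al, with 3.28, 3.78 and 6.05 per kb.

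The 5 members that were too low to be tested were Rps12l1, Rpl32l, Rpl39l, Rpl36al and Rps23rg1, each a paralog, retrogene or like copy by its symbol. Rpl39l, known in mice from the testis, had 0 to 12.97 normalized counts, and Rpl36al had 0 to 23.4, its highest value standing alone in Tg-TAC 4. Rps12l1 was at 0 in all 6 Con-TAC-MQ libraries and reached 8.09 in 1 Tg-TAC library. Rpl24, a core 60S protein, had 0 to 37.7 normalized counts, although every ribosome needs it. Rpl13a, another core 60S protein, had 41.1 to 142. Both genes have many near-identical copies in the genome, and how reads that match several places were counted is not given, so their values and those of the retrocopies are uncertain.

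Within groups the members were steadier than most genes. The SD of log2 values between libraries of a group had a median of 0.20 over the tested members, against 0.29 over all genes tested. All genes tested include genes with few reads, and the members were not set against genes of a like level. Rpl7 (SD 0.12) and Rpl22 (SD 0.12), both 60S proteins, varied least. Rpl24 (SD 1.22), with its few reads, and Rpl3l (SD 0.58) varied most. The members also moved together from heart to heart. In Tg-Sham 5, 85 of the 87 lay above the mean of its group, by a median of 0.40, and in Con-TAC-MQ 3 it was also 85, by a median of 0.37. In Con-TAC 6 only 2 lay above the group mean, with a median of -0.36, and in Tg-Sham 1 only 1, with a median of -0.24. The 6 Tg-TAC hearts were the most even, with 27 to 69 members above the mean.

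**Figure D1:**
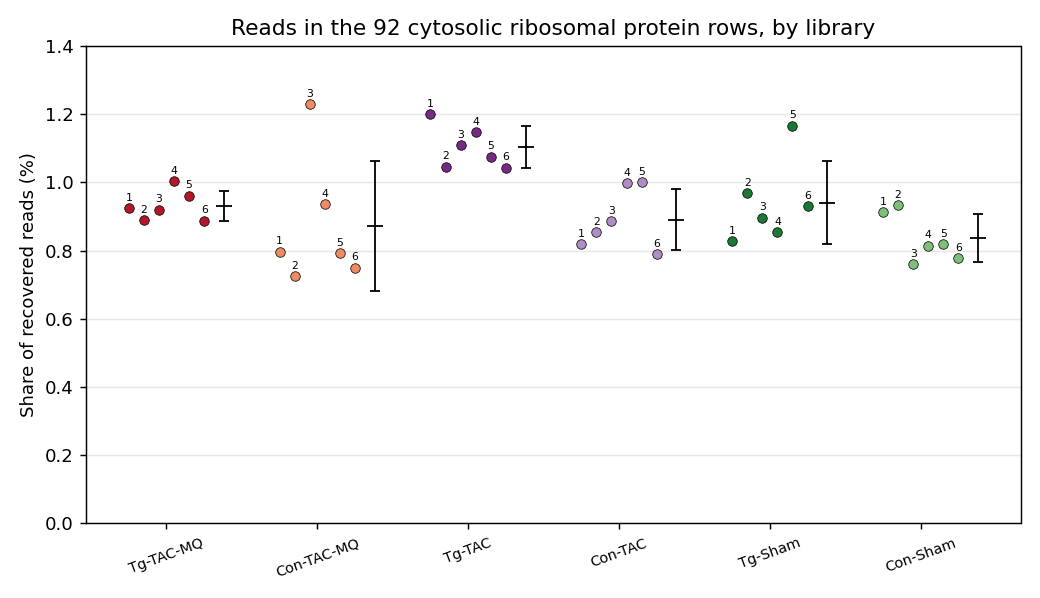
Share of each library's reads that fell on the 92 ribosomal protein genes, in percent, by group (numbered points, libraries; bars, mean and SD of 6). The 6 Tg-TAC hearts lie between 1.04% and 1.20%, above all Con-TAC and all Tg-TAC-MQ hearts.

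The 92 genes took about 1% of the reads of a heart. Their share was 0.888% to 1.00% (median 0.923%) in Tg-TAC-MQ, 0.726% to 1.23% (0.795%) in Con-TAC-MQ, 1.04% to 1.20% (1.09%) in Tg-TAC, 0.789% to 1.00% (0.870%) in Con-TAC, 0.828% to 1.17% (0.914%) in Tg-Sham and 0.760% to 0.934% (0.817%) in Con-Sham hearts. Every Tg-TAC heart was above every Tg-TAC-MQ, Con-TAC and Con-Sham heart, while Tg-TAC overlapped with Con-TAC-MQ and Tg-Sham. The share depends on how much of a library is mitochondrial RNA, which was 13.1% to 19.6% of the reads in Tg-TAC and 17.3% to 24.9% in Con-TAC hearts. Rn18s-rs5, a ribosomal RNA gene, took 0.591% to 1.33% of the reads in Tg-TAC-MQ, 2.38% to 11.8% in Tg-TAC and 1.55% to 9.22% in Con-TAC hearts. With both the mitochondrial genome and Rn18s-rs5 left out, the shares were 1.12% to 1.28% in Tg-TAC-MQ and 1.36% to 1.53% in Tg-TAC hearts. In Con-TAC hearts they were 0.981% to 1.36%, so Tg-TAC stayed clear of Tg-TAC-MQ and met the highest Con-TAC heart. The mitochondrial genome was not left out alone. The pattern of single genes across the 36 hearts is in the plot of member levels by library.

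**Figure D2:**
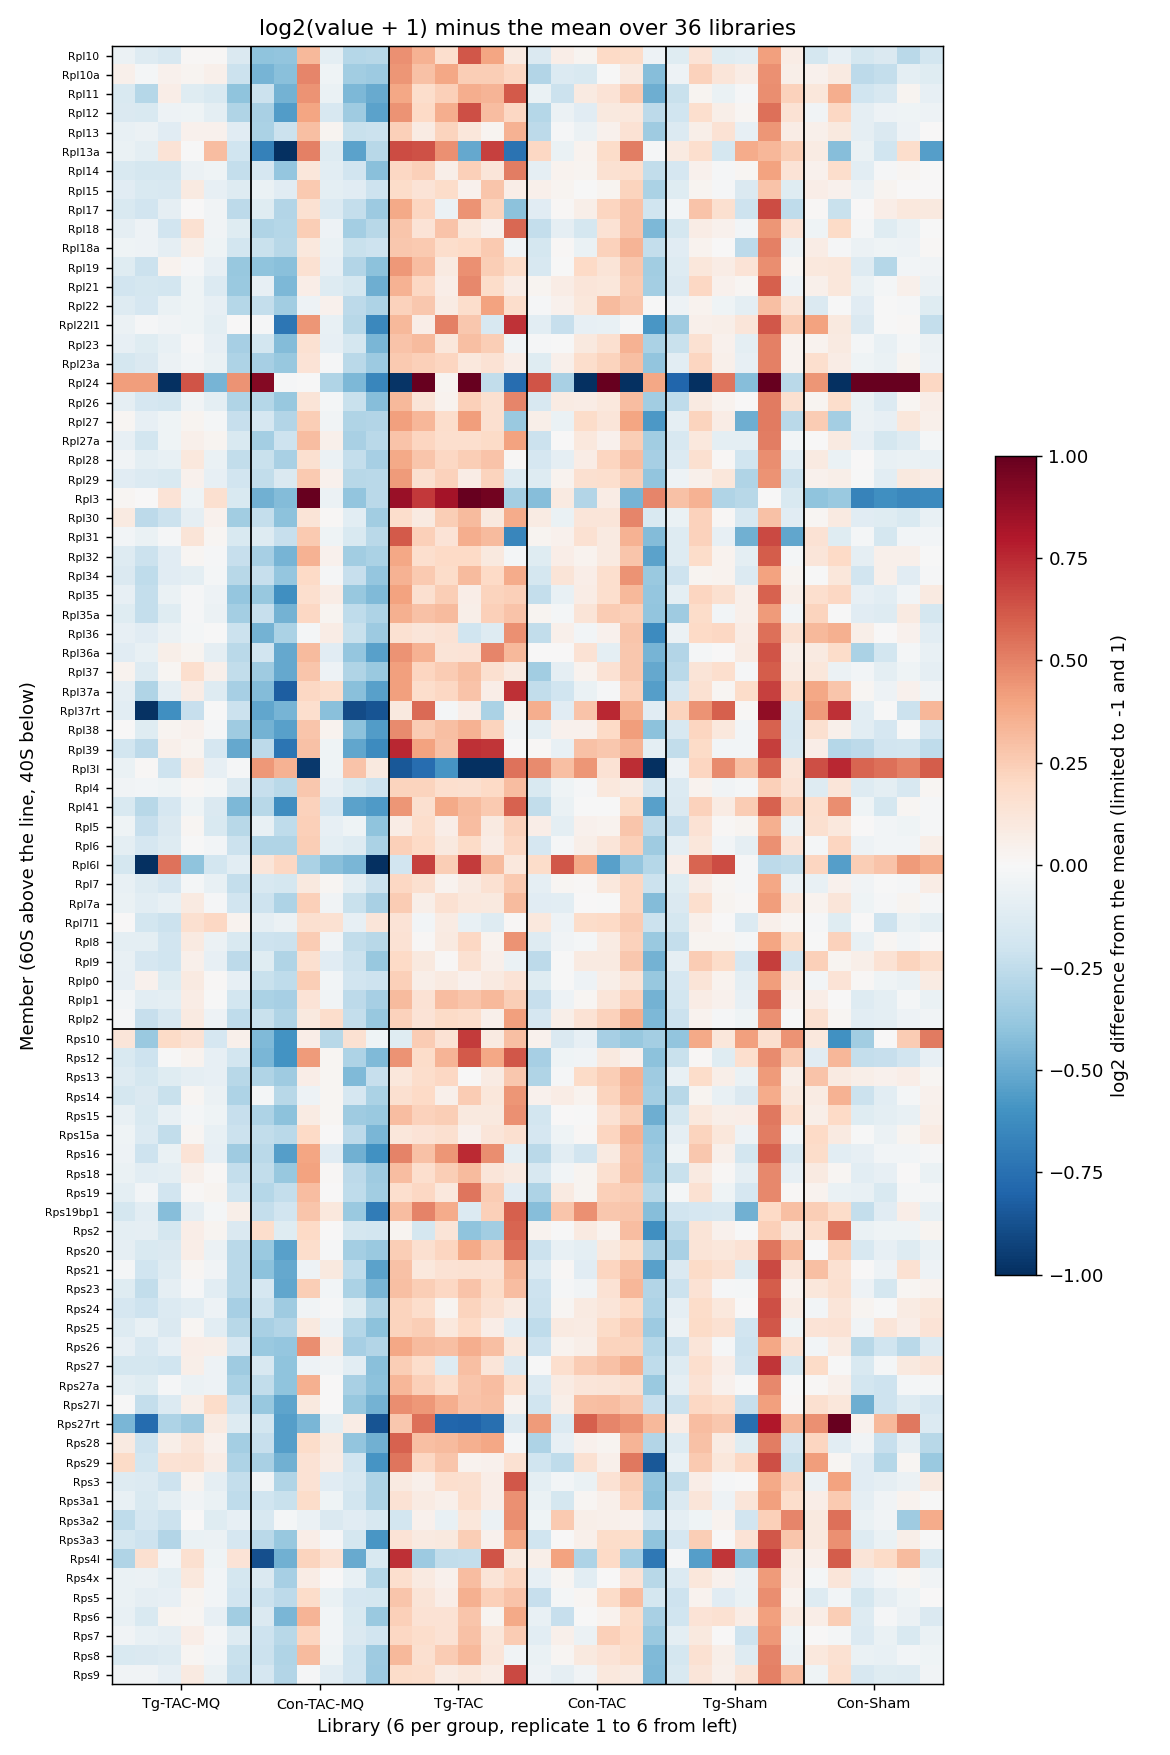
Level of 85 of the 87 tested members (60S above the line, 40S below) in each of the 36 libraries, as the log2 difference from the member's mean over all libraries (colour, limited to -1 and 1). Tg-TAC hearts are above the mean for most members, and single hearts such as Tg-Sham 5 and Con-TAC-MQ 3 stand out as whole columns.

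Some members are shown here by their first bases, since a TOP tract at the start is the feature the family is known for. They are members called lower with MitoQ in Tg hearts, those of smallest adjusted p among genes with a single listed start, and Rpl3l. Rpl22, Rpl3 and Rpl10a, which are described below, are not shown. RefSeq promoters of GRCm38.p6, 250 bases before to 50 after each start, were matched by symbol for 67 members with 79 starts. The deposited table uses another build, mm39, so the windows carry GRCm38.p6 coordinates and gene positions further down carry those of mm39. Each window runs from 15 bases before the annotated start through 15 bases from it, 30 bases in all, and capitals mark a pyrimidine tract, a C followed by at least 5 bases that are each C or T, on the gene's strand.
Rpl39, chrX:37085208-37085237, minus strand: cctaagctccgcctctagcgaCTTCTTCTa
Rpl12, chr2:32961697-32961726, plus strand: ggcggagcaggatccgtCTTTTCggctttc
Rpl14, chr9:120571502-120571531, plus strand: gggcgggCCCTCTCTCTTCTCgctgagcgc
Rps12, chr10:23787195-23787224, minus strand: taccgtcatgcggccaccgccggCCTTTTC
Rpl41, chr10:128549154-128549183, minus strand: cacacgggccggctcggaagtgacgacacc
Rpl10, chrX:74270801-74270830, plus strand: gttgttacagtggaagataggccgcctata
Rpl11, chr4:136053379-136053408, minus strand: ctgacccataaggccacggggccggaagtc
Rpl26, chr11:68901551-68901580, plus strand: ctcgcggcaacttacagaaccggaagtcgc
Rpl3l, chr17:24727811-24727840, plus strand: gagtgttctagctctgtcatttgacctctg
Rpl3l, another start, chr17:24732670-24732699, plus strand: gtcatcaacagctacagtgccccaaatgtc
Rpl39, Rpl12, Rpl14 and Rps12 hold a tract in this window, while Rpl41, Rpl10, Rpl11, Rpl26 and both Rpl3l starts hold none. No marked tract begins at the annotated start itself. Those of Rpl39, Rpl12 and Rps12 begin after it, and that of Rpl14 begins before it and runs past it. Where the caps lie was not measured, so a window without a tract does not show that the mRNA lacks a TOP tract. For Rpl11 a tract was found in the wider search described next.

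A tract within 20 bases of the start was present in 60.8% of the 79 member starts and in 31.9% of the 32851 starts of the whole table. CCGGAAG, the core that ETS factors such as GABP read, searched on both strands of the 300 bases, was in 32.9% of member promoters and 8.86% of all. CACGTG, the E-box of Myc, searched likewise, was in 10.1% of member promoters and 7.15% of all. CATTCC, the core read by TEAD factors, was in 8.86% of member promoters and 14.7% of all. Neither Rpl3l promoter held any of these 4 motifs. These are matches of letters in 1 window and say nothing about what binds there.

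MitoQ in hearts with TAC and the cSirt4-Tg label was the comparison in which the most members moved. In Tg-TAC-MQ against Tg-TAC hearts 44 of the 87 tested members fell and 1, Rpl3l, rose, where 7.44% of all genes tested fell and 9.89% rose (17.3% in either direction). The median difference of the members was -0.30, against -0.00 for all genes tested, and 85 members were negative. Cell-type markers moved in the same comparison, as 3 of 12 cardiomyocyte markers rose (median 0.29), 4 of 12 fibroblast markers fell (median -0.40) and 1 of 12 macrophage markers fell (median -0.21). Summed cardiomyocyte markers were 2.37 to 2.55 M in Tg-TAC-MQ and 1.33 to 3.25 M in Tg-TAC hearts, and their part in the members' difference was not tested. Both subunits took part, with 17 of 36 small-subunit genes lower at a median of -0.29, and 27 of 51 large-subunit genes lower at a median of -0.30. In 38 members every Tg-TAC-MQ heart lay below every Tg-TAC heart, where this held for 2.91% of all genes tested.

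Rpl22, a 60S protein on chromosome 4 (152410199 to 152418528) that mice can do without for general translation, had the smallest p. It had 2613 to 3076 normalized counts (median 2952) in Tg-TAC-MQ hearts, against 3363 to 4191 (3664) in Tg-TAC hearts. The groups did not overlap, and the difference was -0.35 with an SE of 0.07 (limma adjusted p = 0.0019).

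Rpl41, the smallest ribosomal protein, at the contact of the subunits and on chromosome 10 (128383983 to 128385174), had 2001 to 2651 (median 2441) in Tg-TAC-MQ, against 3055 to 4103 (3465) in Tg-TAC hearts. Rpl39, which lines the exit tunnel of the new protein, had 508 to 748 (641) in Tg-TAC-MQ, against 720 to 1219 (1073) in Tg-TAC hearts. Rpl41 was clear between the groups, while for Rpl39 the lowest Tg-TAC heart lay within the Tg-TAC-MQ range. Their differences were -0.56 (SE 0.13, limma adjusted p = 0.0032) and -0.65 (SE 0.15, limma adjusted p = 0.0040).

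Rpl12, at the base of the stalk that recruits translation factors, had 2201 to 2634 (median 2500) in Tg-TAC-MQ, against 3118 to 4240 (3432) in Tg-TAC hearts. Rpl10, which joins the 60S subunit last and permits the subunits to join, had 3976 to 4472 (4155) in Tg-TAC-MQ, against 4721 to 6832 (5740) in Tg-TAC hearts. Neither gene overlapped between the groups, with differences of -0.49 (SE 0.12) and -0.43 (SE 0.10) and limma adjusted p of 0.0043 and 0.0044. The 60S protein Rpl14 followed, with 3143 to 3585 (3304) in Tg-TAC-MQ, against 3864 to 5286 (4324) in Tg-TAC hearts, a difference of -0.37 (SE 0.09, limma adjusted p = 0.0045). These 6 genes kept their call in each of the 12 fits that left out 1 heart.

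In the small subunit the first called was Rps12, a protein of the 40S head, on chromosome 10 (23661081 to 23663173). It had 2120 to 2507 normalized counts (median 2252) in Tg-TAC-MQ, against 2776 to 3763 (3269) in Tg-TAC hearts, a difference of -0.53 (SE 0.13, limma adjusted p = 0.0059) with no overlap. The called members also held Rps6, the substrate of the S6 kinases, at -0.30 (limma adjusted p = 0.0433). Rpl5 and Rpl11, the pair that binds Mdm2 with 5S rRNA, fell by 0.30 and 0.53 on the log2 scale (limma adjusted p = 0.0227 and 0.0075). Rps6, Rpl5 and Rpl11 were chosen for their known roles after their values were seen.

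The calls of the MitoQ comparison in Tg hearts moved with 3 choices. With the same total outside the mitochondrial genome 12 of 87 members were called (11 lower), where 20.2% of all genes were called. That scaling shifts the median of all genes by 0.10. With the trend of each library with transcript length removed 8 of 82 were called (7 lower), where 11.5% of all genes were called. The member median was then -0.09. With the class of the number in the library names as a covariate 3 were called, where 15.7% of all genes were called. Among the 3 were Rpl3 lower and Rpl3l higher, and the member median was 0.10, the opposite sign. Counted in either direction, members were called less often than all genes in each of these 3 fits. That number, whose meaning is not given, was 20 or 21 in all MitoQ hearts and in Con-TAC 6. It was so in no other vehicle TAC heart, so MitoQ and this number can barely be told apart. Con-TAC 6 was the 1 vehicle heart in that class, so the covariate's part in the MitoQ comparisons rested on this heart. Only 2 members lay above the group mean in it, with a median of -0.36. Without Tg-TAC-MQ 1, Tg-TAC-MQ 2, Tg-TAC-MQ 6 or Tg-TAC 1 the count was 29, 25, 21 and 26. Without 4 doubted libraries (Con-TAC-MQ 5, Con-Sham 2 and hearts 4 and 6 of the Tg-TAC group) it was 36. That fit was added after the data were seen, and it kept Con-TAC 6 and Con-TAC-MQ 3, which stood apart above. The share of all genes called in the fits that left out hearts is not given here, so these counts have no background beside them. The members' median was -0.33 to -0.27 with 1 heart left out and -0.30 without the 4 doubted libraries.

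**Figure D3:**
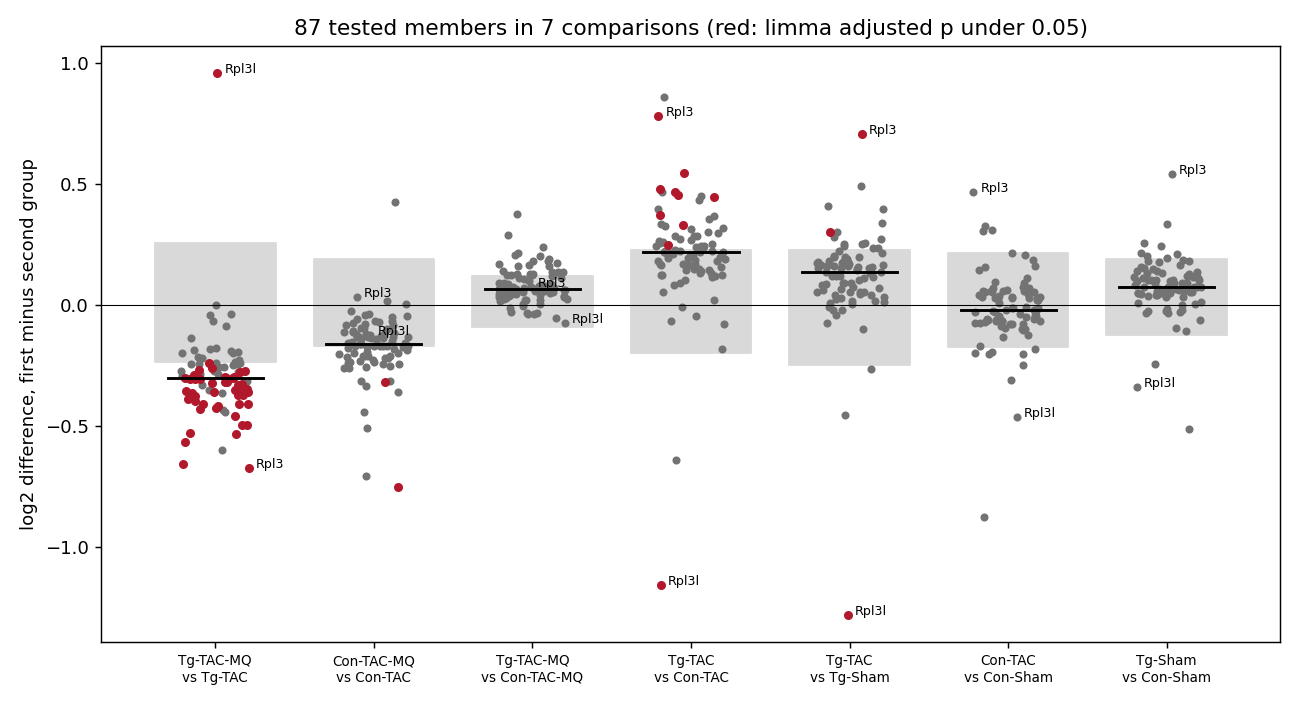
Log2 difference of each of the 87 tested members in the 7 comparisons of 2 groups (red points, limma adjusted p under 0.05; black line, members' median; grey bar, middle 50% of all genes tested). In Tg-TAC-MQ against Tg-TAC 44 members are called lower and 1 higher, and in Tg-TAC against Con-TAC 9 are called higher and 1 lower.

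In control TAC hearts MitoQ went with fewer called members. In Con-TAC-MQ against Con-TAC hearts 2 members fell and 0 rose, where 1.31% of all genes tested fell and 1.92% rose (3.23% in either direction). The members' median was -0.16 against 0.01 for all genes tested (-0.24 to -0.10 with 1 heart left out, the ends being without Con-TAC 6 and without Con-TAC 5), 83 of 87 were negative, and 17 had an unadjusted p under 0.05. Rpl22 had 2493 to 3270 normalized counts (median 2672) in Con-TAC-MQ, against 3146 to 3951 (3354) in Con-TAC hearts, a difference of -0.32 (SE 0.07, limma adjusted p = 0.0206). The ranges overlapped, although each Con-TAC-MQ heart was below the Con-TAC mean.

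The other called gene was Rpl37rt, on chromosome 5, which by its symbol is a retrogene of Rpl37. It had 53.0 to 112 (median 70.3) in Con-TAC-MQ, against 91.7 to 168 (124) in Con-TAC hearts, a difference of -0.75 (SE 0.21, limma adjusted p = 0.0360). Its reads may be shared with Rpl37. Con-TAC 6 and Con-TAC-MQ 3, which stood apart above, weighed on the count, as it was 12 without Con-TAC 6 and 4 without Con-TAC-MQ 3. It was 1 without Con-TAC-MQ 1, Con-TAC-MQ 5, Con-TAC 2 or Con-TAC 3, and 0 without Con-TAC-MQ 2, Con-TAC-MQ 6, Con-TAC 4 or Con-TAC 5. The share of all genes called in these fits without 1 heart is not given here. The count was also 0 with the same total outside the mitochondrial genome, with the name number as a covariate, with only the libraries compared and with the length trend removed. The last of these and the name number put the members' median at 0.05 and 0.19, above 0. The value with the name number rests on Con-TAC 6, the 1 vehicle heart in the class of the MitoQ hearts. The replicate number as a block, the fit without a filter and the fit without the 4 doubted libraries each gave 1.

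Between the MitoQ hearts of the 2 genotypes no member passed the test. In Tg-TAC-MQ against Con-TAC-MQ hearts limma called 0 of 87 members, edgeR and DESeq2 also called 0, and 0 had an unadjusted p under 0.05, where 0.0737% of all genes tested were called. The smallest p belonged to Rps27l, a paralog of Rps27 that responds to p53, with a difference of 0.22, to Rpl13a with 0.38 and to Rpl37 with 0.20, all with a limma adjusted p of 1.00.

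Members differ in a property that also goes with MitoQ in other genes, the length of the transcript. The 82 tested members with a length had a median of 756 nucleotides, against 2935 for the 13877 tested genes with a length, and 59 of them were no longer than 1000 nucleotides. Among the other tested genes up to 1000 nucleotides (804 genes) the median difference was -0.20 in Tg-TAC-MQ against Tg-TAC and -0.23 in Con-TAC-MQ against Con-TAC hearts, and 18.3% and 4.35% of them were called lower. Above 4000 nucleotides (4287 genes) the median was 0.17 in both comparisons. Rn18s-rs5, a ribosomal RNA gene, took 0.591% to 1.39% of the reads in MitoQ hearts and 1.55% to 11.8% in vehicle TAC hearts. The part of transcript length and of library preparation in the members' fall was not tested.

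**Figure D4:**
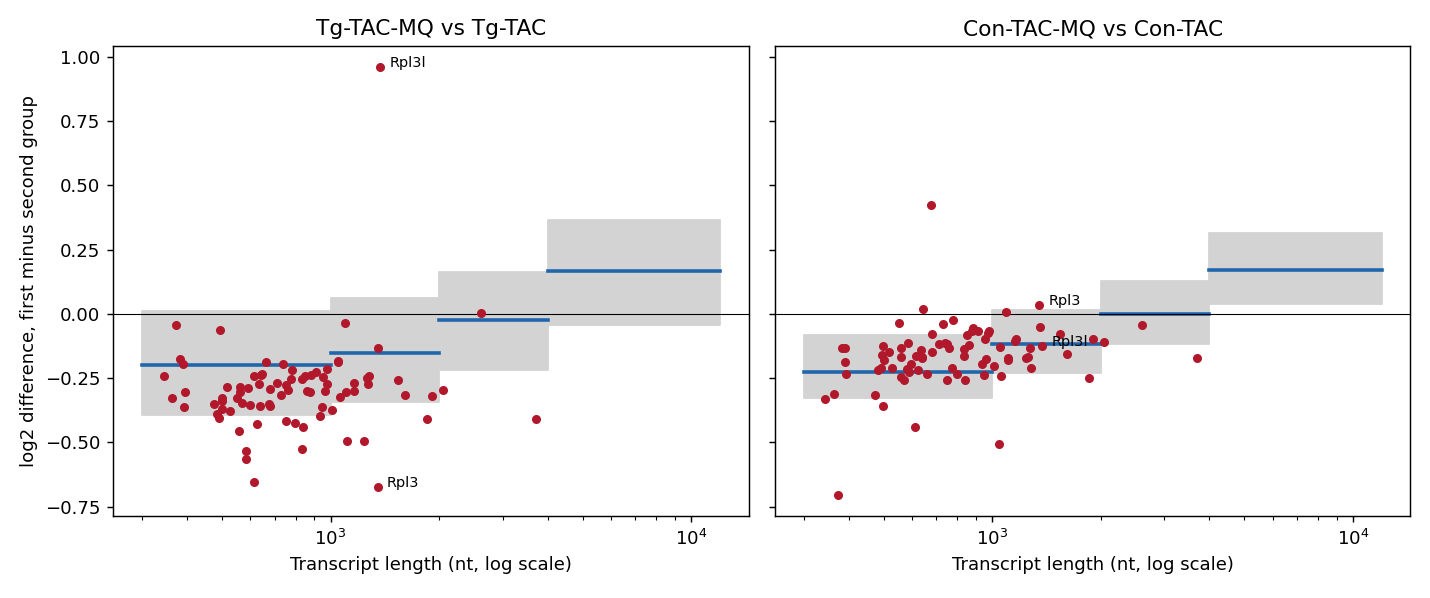
Log2 difference of each of the 82 tested members with a length (red points) against the length of its transcript in nucleotides (log axis), for MitoQ against vehicle in Tg and in control TAC hearts (blue lines, median of the other tested genes per length class; grey, their middle 50%). Most members are short, where other genes also have a negative median (-0.20 and -0.23 up to 1000 nucleotides).

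Vehicle TAC hearts of the Tg group were next set against those of controls. In Tg-TAC against Con-TAC hearts 9 members rose and 1 fell, where 3.19% of all genes tested rose and 3.29% fell (6.48% in either direction). The members' median was 0.22 against 0.00 for all genes tested (0.14 without Con-TAC 6), 80 of 87 were positive and 41 had an unadjusted p under 0.05. The calls comprised 3 small-subunit genes (Rps12, Rps16 and Rps20, all of the 40S head) and 7 large-subunit genes, and in 5 members (Rps12, Rpl10a, Rpl12, Rpl4 and Rps27a) every Tg-TAC heart was above every Con-TAC heart, where this held for 0.559% of all genes tested.

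Rps12 had 2776 to 3763 normalized counts (median 3269) in Tg-TAC hearts, against 1835 to 2609 (2377) in Con-TAC hearts. Rpl10a, the protein of the mobile L1 stalk, on chromosome 17 (28547445 to 28550007), had 2265 to 2674 (2372) in Tg-TAC, against 1460 to 2096 (1778) in Con-TAC hearts. Neither overlapped. The differences were 0.55 (SE 0.13, limma adjusted p = 0.0177) and 0.46 (SE 0.11, limma adjusted p = 0.0194).

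Rpl12 had 3118 to 4240 (median 3432) in Tg-TAC, against 2234 to 2925 (2559) in Con-TAC hearts, and Rpl41 had 3055 to 4103 (3465) in Tg-TAC, against 1872 to 3122 (2663) in Con-TAC hearts. Only Rpl12 was clear between the groups, and the differences were 0.45 (SE 0.12, limma adjusted p = 0.0259) and 0.47 (SE 0.13, limma adjusted p = 0.0306). Rpl4, which lines the exit tunnel, averaged 13465 ± 521 in Tg-TAC and 11364 ± 939 in Con-TAC hearts, with no overlap and a difference of 0.25 (limma adjusted p = 0.0482). Rps16, Rps20 and Rplp1 rose by 0.48, 0.37 and 0.33 on the log2 scale (limma adjusted p = 0.0403, 0.0417 and 0.0464). The called members that remain, Rpl3 and Rpl3l, moved in opposite directions and are described below.

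These calls lay near the threshold. The count was 1 without Tg-TAC 1, Tg-TAC 4, Con-TAC 1 or Con-TAC 3. It was 3 without Tg-TAC 5, 5 without Tg-TAC 3 or Con-TAC 2 and 6 without Con-TAC 5. It reached 14 without Tg-TAC 6, where 22.4% of all genes were called. With the name number as a covariate 7 members and 20.4% of all genes were called, and the members' median was 0.13. Within the libraries named 7 to 14 these were 13 members and 25.2%, with a median of 0.15. The count was 0 when only the libraries compared entered the fit, where 0.00614% of all genes were called. With the length trend removed it was 23 (22 higher), where 10.3% of all genes were called. Without the 4 doubted libraries 8 members and 14.1% of all genes were called. Markers of other cells moved in the same comparison. Of the 12 markers each, 6 macrophage and 3 fibroblast markers rose and 2 cardiomyocyte markers fell. The summed cardiomyocyte markers were 1.33 to 3.25 M in Tg-TAC and 1.67 to 3.12 M in Con-TAC hearts. Summed fibroblast markers were 79175 to 185686 in Tg-TAC and 59442 to 114985 in Con-TAC hearts, and summed macrophage markers 9314 to 22736 in Tg-TAC and 8481 to 12577 in Con-TAC hearts. Their part in the members' difference was not tested.

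For TAC itself few members passed the test. In Tg-TAC against Tg-Sham hearts 2 members rose and 1 fell, where 7.91% of all genes tested rose and 8.77% fell (16.7% in either direction), and the members' median was 0.14 against -0.01 for all genes tested. Without Tg-Sham 1 that median was 0.07 and without Tg-Sham 5 it was 0.22. In the same comparison 6 of 12 cardiomyocyte markers fell (median -0.53) and 6 of 12 fibroblast markers rose (median 0.49). Rn7sk, a small nuclear RNA, had 64.9 to 359 normalized counts in Tg-TAC and 1228 to 5235 in Tg-Sham hearts. The part of either in the members' difference was not tested. Rpl3 rose, Rpl3l fell, and Rpl10 had 4721 to 6832 normalized counts (median 5740) in Tg-TAC, against 4070 to 5898 (4395) in Tg-Sham hearts. The ranges of Rpl10 overlapped, with Tg-Sham 5 the highest of its group, and its difference was 0.30 (SE 0.10, limma adjusted p = 0.0363). The count was 18 without Tg-Sham 5, in which 85 members stood above their group mean, and 17% of all genes were called then. It was 7 without Tg-TAC 6 and 5 without the 4 doubted libraries, where 28.3% and 23.7% of all genes were called. It was 1 without Tg-TAC 1, Tg-TAC 4, Tg-TAC 5, Tg-Sham 3 or Tg-Sham 4 and 0 when only the libraries compared entered the fit. Within the libraries named 7 to 14 it was 10 (9 higher), where 17.5% of all genes were called.

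In Con-TAC against Con-Sham hearts limma called 0 members, as did edgeR and DESeq2, where 5.3% of all genes tested were called, and 5 members had an unadjusted p under 0.05. The members' median was -0.02 against 0.01 for all genes tested, and its sign was not stable. It was 0.05 without Con-TAC 6, 0.08 with the same total outside the mitochondrial genome, 0.06 with the name number, 0.02 within the libraries named 7 to 14 and 0.01 without the 4 doubted libraries. Among those of smallest p, Rpl22 had 0.19 (limma adjusted p = 0.124) and Rpl10 had 0.22 (limma adjusted p = 0.196). Within the Con-TAC group, 82 members lay above the group mean in heart 5 and 2 in heart 6.

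In Tg-Sham against Con-Sham hearts limma, edgeR and DESeq2 again called 0 members, where 0.873% of all genes tested were called, and 4 had an unadjusted p under 0.05. The members' median was 0.08 against 0.00, and 74 of 87 were positive. Without Tg-Sham 5 that median was 0.003, without Tg-Sham 1 it was 0.13, and within the libraries named 7 to 14 it was -0.01. Rpl3 had 1978 to 3104 normalized counts (median 2317) in Tg-Sham, against 1532 to 1886 (1579) in Con-Sham hearts. It was the 1 member in which every Tg-Sham heart was above every Con-Sham heart, where this held for 2.75% of all genes tested, and its difference of 0.54 did not pass (limma adjusted p = 0.277). Rpl10a and Rpl10 had 0.25 and 0.21 (limma adjusted p = 0.339 and 0.356). In this comparison 7 of 12 macrophage markers rose, and their part was not tested.

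Tests of whether the effects differed between genotypes gave no call. For TAC by genotype and for MitoQ by genotype, limma called 0 of 87 members and 0% of all genes tested, and edgeR and DESeq2 also called 0 members. In the TAC interaction 0 members had an unadjusted p under 0.05, and Rps12 had the smallest, with 0.37 (limma adjusted p = 0.847). In the MitoQ interaction 3 did, Rpl3l with 1.08 (SE 0.45), Rps12 with -0.42 and Rpl3 with -0.71, all with a limma adjusted p of 0.574. So the larger number of calls in Tg hearts is not shown to be a difference between genotypes. Tg-TAC and Con-TAC hearts enter 3 of the 7 comparisons each, and a high Tg-TAC group raises its difference to Con-TAC and Tg-Sham and lowers that of Tg-TAC-MQ to it.

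Rpl3l and Rpl3 had the largest differences of the called members in Tg-TAC against Con-TAC, Tg-TAC against Tg-Sham and Tg-TAC-MQ against Tg-TAC hearts, and they moved in opposite ways in each. Rpl3l, the muscle form, lies on chromosome 17 (24946794 to 24955117, plus strand), and Rpl3, which takes the same place in the 60S subunit near the peptidyl transferase centre, lies on chromosome 15 (79961992 to 79976069, minus strand). Rpl3l was highest and Rpl3 lowest in unstressed control hearts. In Tg-TAC hearts Rpl3l fell and Rpl3 rose against both Con-TAC and Tg-Sham, and in Tg-TAC-MQ hearts Rpl3l rose and Rpl3 fell against Tg-TAC.

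Rpl3l had 4784 to 5846 normalized counts (median 5379) in Tg-TAC-MQ, 2834 to 7474 (6322) in Con-TAC-MQ, 860.5 to 8074 (3165) in Tg-TAC, 2380 to 9243 (7170) in Con-TAC, 5327 to 8278 (6602) in Tg-Sham and 7824 to 9336 (8360) in Con-Sham hearts. The range of the Tg-TAC group overlapped with that of every other group. Within it Rpl3l was 3076, 3253, 3682, 860.5, 1704 and 8074 in hearts 1 to 6, so that heart 6 stood with the sham hearts and the other 5 below all of them.

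Rpl3 had 2189 to 2722 (median 2455) in Tg-TAC-MQ, 1745 to 6034 (1941) in Con-TAC-MQ, 1929 to 5335 (4383) in Tg-TAC, 1762 to 3415 (2273) in Con-TAC, 1978 to 3104 (2317) in Tg-Sham and 1532 to 1886 (1579) in Con-Sham hearts. The Tg-TAC hearts 1 to 6 had 4421, 3983, 4345, 5335, 4752 and 1929, the mirror of Rpl3l, with heart 6 again among the shams. The hearts with little Rpl3l and much Rpl3 in other groups were Con-TAC 6 (2380 and 3415) and Con-TAC-MQ 3 (2834 and 6034).

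**Figure D5:**
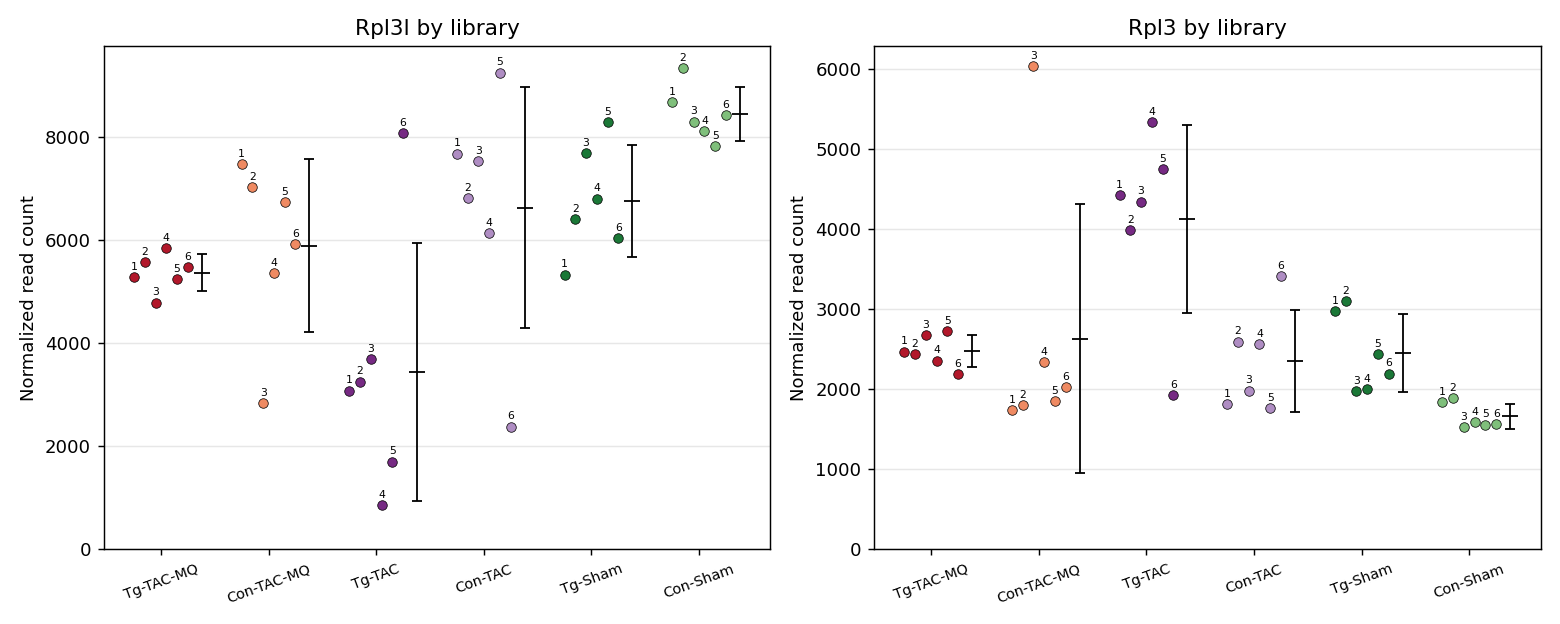
Normalized counts of Rpl3l and of Rpl3 in each heart by group (numbered points, libraries; bars, mean and SD of 6). Tg-TAC hearts 1 to 5 have 860.5 to 3682 for Rpl3l and 3983 to 5335 for Rpl3, and Tg-TAC 6 has 8074 and 1929.

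The differences of Rpl3l were -1.15 (SE 0.32, limma adjusted p = 0.0323) in Tg-TAC against Con-TAC, -1.28 (SE 0.32, limma adjusted p = 0.0079) in Tg-TAC against Tg-Sham and 0.96 (SE 0.32, limma adjusted p = 0.0364) in Tg-TAC-MQ against Tg-TAC hearts. Those of Rpl3 were 0.78 (SE 0.22, limma adjusted p = 0.0351), 0.71 (SE 0.22, limma adjusted p = 0.0283) and -0.67 (SE 0.22, limma adjusted p = 0.0350). For both genes 5 of 6 Tg-TAC hearts lay on that side in the comparisons with Con-TAC and Tg-Sham, and 6 of 6 Tg-TAC-MQ hearts did. Neither was called in the other 4 comparisons, where Rpl3l had -0.46 in Con-TAC against Con-Sham, -0.34 in Tg-Sham against Con-Sham, -0.12 in Con-TAC-MQ against Con-TAC and -0.07 in Tg-TAC-MQ against Con-TAC-MQ hearts.

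Per kilobase, Rpl3l made up 63.7% to 71.1% (median 68.4%) of the reads of the pair in Tg-TAC-MQ, 31.6% to 80.8% (76.1%) in Con-TAC-MQ, 13.7% to 80.4% (42.6%) in Tg-TAC, 40.6% to 83.8% (75.5%) in Con-TAC, 63.7% to 79.2% (74.9%) in Tg-Sham and 82.2% to 84.2% (83.2%) in Con-Sham hearts. All 6 Con-Sham hearts were above all Tg-Sham hearts, and the Con-Sham range was the narrowest of the 6. Rpl3l was below Rpl3 in Tg-TAC 1 to 5, Con-TAC 6 and Con-TAC-MQ 3 and above it in the other 29 hearts.

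The pair moved with cell-type markers. In Tg-TAC 1 to 5 the summed cardiomyocyte markers were 1.98, 2.29, 1.99, 1.33 and 1.65 M, and in Con-TAC 6 and Con-TAC-MQ 3 they were 1.67 and 1.81 M, while the lowest of the other hearts had 2.37 M. Tg-TAC 6 had 3.25 M, the lowest fibroblast sum of its group (79175 against 107470 to 185686) and the lowest macrophage sum (9314 against 15971 to 22736). Con-TAC-MQ 3 had the highest fibroblast and macrophage sums of its group (136979 and 22421). The part of cell composition in the pair's differences was not tested.

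Single hearts weighed on the pair. Without Tg-TAC 6 the Rpl3l difference was -1.46 against Con-TAC (limma adjusted p = 0.00086) and -1.59 against Tg-Sham (limma adjusted p = 0.00015). Without Tg-TAC 4 it was -0.82 against Con-TAC (limma adjusted p = 0.121), and -0.94 against Tg-Sham (limma adjusted p = 0.0291), and that of Tg-TAC-MQ against Tg-TAC hearts was 0.62 (limma adjusted p = 0.133). The call of Rpl3l against Tg-Sham held in all 12 fits that left out 1 heart, while each other call of the pair was lost in 6 to 9 of 12. edgeR on the recovered reads gave Rpl3l an adjusted p of 0.0564 against Con-TAC and 0.141 for MitoQ in Tg hearts. Without the filter neither gene was called against Con-TAC or for MitoQ in Tg hearts. With the same total outside the mitochondrial genome Rpl3 lost its call in both. With only the libraries compared in the fit, neither gene was called against Con-TAC or Tg-Sham. For MitoQ in Tg hearts that fit called Rpl3 and not Rpl3l.

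In the other paralog pairs no member was called in the direction opposite to its partner. Rpl22l1, which Rpl22 represses in mice, averaged 639 ± 138 in Tg-TAC and 457 ± 60.7 in Con-TAC hearts, a difference of 0.47 that did not pass (limma adjusted p = 0.0606), and -0.33 in Tg-TAC-MQ against Tg-TAC hearts (limma adjusted p = 0.143), where Rpl22 also was negative. Rps27l fell by 0.37 on the log2 scale in Tg-TAC-MQ against Tg-TAC hearts (limma adjusted p = 0.0369), and Rps27 had -0.24 (limma adjusted p = 0.157). Rpl7 fell by 0.27 (limma adjusted p = 0.0128), while Rpl7l1, a paralog of it, had 0.00 (limma adjusted p = 0.990). Rps4x had -0.21 and Rps4l -0.09 (limma adjusted p = 0.0603 and 0.822), and Rpl36a fell by 0.39 (limma adjusted p = 0.0362). Apart from Rpl3l, Rpl7l1 was the 1 member that was not negative under MitoQ in Tg hearts.

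The stalk proteins, which bind the elongation factors, had unequal differences. In Tg-TAC-MQ hearts Rplp1 averaged 6141 ± 381, against 7704 ± 357 in Tg-TAC hearts, a difference of -0.33 (limma adjusted p = 0.0257). Rplp2 had -0.30 (limma adjusted p = 0.0554), and Rplp0, which anchors the pair to the subunit, had -0.13 (limma adjusted p = 0.305). Tests of the differences between these genes were not made.

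Other genes of the ribosome were taken from lists chosen with earlier results known. The 77 tested mitochondrial ribosomal proteins build the separate ribosome of mitochondria. In Tg-TAC against Con-TAC hearts they had a median of -0.18, the sign opposite to the cytosolic members. Of the 77, 5 were lower (6.49%, against 3.29% of all genes tested) and 0 higher. With MitoQ their median was -0.05 in Tg hearts (6 lower of 77, or 7.79%, against 7.44% of all genes tested) and -0.21 in control hearts (1 lower, or 1.30%, against 1.31% of all). Fau, a fusion of a ubiquitin-like protein with a 40S protein that the name rule misses, fell to 1644 ± 104 in Tg-TAC-MQ, against 2178 ± 232 in Tg-TAC hearts (difference -0.40, limma adjusted p = 0.0155). Of the 48 tested pseudogenes of the family, 2 fell in Tg-TAC-MQ against Tg-TAC hearts (4.17%, against 7.44% of all genes tested), with a median of -0.24. In Con-TAC-MQ against Con-TAC hearts 8 of them fell (16.7%, against 1.31% of all), with a median of -0.63. The few reads of these pseudogenes may come from the parent genes.

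Among 22 translation factors and other TOP mRNAs, 8 fell and 1 rose in Tg-TAC-MQ against Tg-TAC hearts (median -0.21), where 7.44% of all genes tested fell and 9.89% rose. Npm1, a nucleolar chaperone, had -0.43 (limma adjusted p = 0.0028), Eef1b2, an exchange factor for elongation factor 1A, had -0.30 (limma adjusted p = 0.0135), and Naca, whose long form is made in muscle, had 0.38 (limma adjusted p = 0.0138). Elongation factor 1A has a general form, Eef1a1, and a muscle and nerve form, Eef1a2. Eef1a1 averaged 29208 ± 8756 in Tg-TAC and 17660 ± 3867 in Con-TAC hearts, a difference of 0.69 (limma adjusted p = 0.0158), and it fell to 19403 ± 1008 in Tg-TAC-MQ, against the same Tg-TAC hearts (difference -0.53, limma adjusted p = 0.0222). Eef1a2 was called in none of the 7 comparisons and had -0.27 in Tg-TAC against Con-TAC hearts (limma adjusted p = 0.108).

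Of 36 ribosome biogenesis genes, 7 rose and 0 fell in Tg-TAC against Tg-Sham hearts (median 0.14), where 7.91% of all genes tested rose. In Tg-TAC-MQ against Tg-TAC hearts 9 fell and 0 rose (median -0.16), where 7.44% of all fell. Eif6, which keeps immature 60S subunits from joining, averaged 782 ± 29.7 in Tg-TAC-MQ and 1136 ± 102 in Tg-TAC hearts (difference -0.53, limma adjusted p = 0.0014), and was 0.54 higher in Tg-TAC than in Tg-Sham hearts (limma adjusted p = 0.0019). Sbds, which helps to release Eif6, fell with MitoQ in both genotypes, by 0.44 in Tg (limma adjusted p = 0.00046) and 0.37 in control hearts (limma adjusted p = 0.0127).

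RNA polymerase I and its factors, which make the ribosomal RNA, had a median of -0.14 over 13 genes in Tg-TAC-MQ against Tg-TAC hearts, with 10 negative. Of the 13, 3 rose and 1 fell, where 9.89% of all genes tested rose and 7.44% fell. Polr1a, its largest subunit, had 0.35, and Ubtf, an activator of the ribosomal RNA genes, had -0.24 (limma adjusted p = 0.0109 and 0.0489). Of 20 regulators of mTOR and TOP mRNAs, 5 rose and 2 fell in the same comparison, with a median of 0.03 and 11 positive, against the same shares of all genes. Eif4ebp2, a repressor of cap-dependent translation, had 0.45, Tsc2, an inhibitor of mTORC1, had 0.39, and Rptor, its scaffold, had 0.31 (limma adjusted p = 0.00066, 0.0011 and 0.0055). mRNA levels do not measure the activity of these proteins. In this comparison 26.0% of the other tested genes above 4000 nucleotides were called, with 2.08% called lower, while up to 1000 nucleotides 18.3% were called lower. For the translation factor, biogenesis, RNA polymerase I and mTOR lists, the part of transcript length and of the name number was not tested.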

How the data were processed

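RNA-seq of 36 whole mouse hearts was analysed from the authors' table of genes. The submitters' processing notes name Trim Galore, STAR and mm39. They give no versions, and neither the read counter, its handling of reads that match several places, nor the tool for normalization is named in the sources used here. Per the labels, the library kit was directional. The deposited values are a signal, the normalized read count of a gene in a library. All of them (100%, within 0.01 read) were whole multiples of a library's own step, and so the reads could be recovered. No column was left unused, and groups came from the labels.

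A gene was tested when 6 or more libraries reached a value of 10 (16275 of 25626 genes). limma 3.58.1 in R 4.3.3 was run on log2(value + 1) with 1 mean per group over all 36 libraries, trend and robust moderation, two-sided tests and Benjamini-Hochberg adjustment over all genes tested, at a threshold of 0.05. The steps were tested on simulated data. Lengths are those of GENCODE M21 principal coding transcripts. Hearts on a side were counted against the mean of the other group.

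The members, gene lists and tests were chosen with earlier results of these data known. The rule for named genes took paralog pairs and stalk proteins, up to 6 higher and 6 lower called members of smallest adjusted p per comparison (the 3 of smallest p where none was called), the 2 members of largest and of smallest spread, untested members, and up to 3 called genes per other list. Each alternative changed 1 choice. The fits used a pseudocount of 10, no filter, TMM factors, an equal total outside the mitochondrial genome, edgeR 4.0.16 or DESeq2 1.42.0 (both run on recovered reads), the replicate number as block, the name number class as covariate, the compared libraries alone, libraries named 7 to 14 alone, or all libraries but 1. A fit without 4 doubted libraries and one with the length trend removed were added after the data were seen. Deviations of same-numbered libraries correlated at -0.483 to 0.311, so the numbers do not pair them. Some genes are not reported here.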

Additional observations from a re-analysis of the deposited data

Results flagged for a closer look

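For each named member and the summed share, the highest or lowest of the 6 libraries of a group was set against the nearest of the others. It stood apart where that gap, divided by the range of the group, was above Dixon's critical value for 6 samples. This was so in 20 of 168 groups tested, and chance gives about 1 in 20. The members share libraries, so these are not separate events.

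Con-TAC-MQ 3 was high for 6 members. It had 5559 normalized counts for Rpl10 (3364 to 4144 in the other 5 libraries), 2761 for Rpl10a (1422 to 1907) and 3576 for Rpl12 (1846 to 2436). It also had 6034 for Rpl3 (1745 to 2335), 112 for Rpl37rt (53.0 to 74.2) and 9.23 for the untested Rpl36al (0 to 2.58).

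Tg-Sham 5 was high for 5 members, with 1081 for Rpl36a (570.3 to 737 in the others), 10071 for Rpl7 (7073 to 8111) and 3949 for Rps27 (2112 to 2705). The stalk proteins Rplp1 and Rplp2 had 9556 (5625 to 6725) and 4621 (2894 to 3441) there.

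Con-Sham 2 was high for Rpl12 with 3135 (2548 to 2653), for Rps12 with 3079 (2077 to 2307) and for Rpl36al with 4.40 (1.02 to 1.88). Con-Sham 1 was high for Rpl37 with 1436 (1240.3 to 1303), for Rpl39 with 758 (595 to 637) and for Rps16 with 2193 (1797 to 1920).

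Tg-TAC 6 was high for Rpl14 with 5286 (3864 to 4372). Tg-TAC 4 had 23.4 for Rpl36al (0 to 6.59), and Tg-TAC-MQ 6 was low for Rpl10a with 1690.0 (1938 to 2041).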

How the results depend on the processing

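Counts of called members are given as limma calls unless stated. In Tg-TAC-MQ against Tg-TAC (45 members) 12 were called with the same total outside the mitochondrial genome, where 20.2% of all genes were. With the length trend removed 8 were called (11.5% of all genes), and with the name number as a covariate 3 (15.7% of all genes). The count was 21 to 47 when 1 library was left out, and the share of all genes called is not given for those fits. The median of the members was -0.09 with the length trend removed and 0.10 with the name number, which rests on Con-TAC 6. In Con-TAC-MQ against Con-TAC (2 members) 1 was called with no filter, with the replicate block and without the 4 doubted libraries, 0 with the same total, the name number, only the libraries compared and the length trend removed, and 0 to 12 with 1 library left out; the median was 0.05 and 0.19 with the length trend removed and the name number. In Tg-TAC against Con-TAC (10 members) 4 were called with no filter (2.42% of all genes), 6 with the same total (5.09%) and 0 with only the libraries compared (0.00614%). With the length trend removed 23 were called (10.3% of all genes), edgeR called 7 (6.54%) and DESeq2 14 (10.6%). With 1 library left out the count was 1 to 14, reaching 14 without Tg-TAC 6, where 22.4% of all genes were called. In Tg-TAC against Tg-Sham (3 members) 1 was called with the name number, 0 with only the libraries compared, 10 within the libraries named 7 to 14, 5 without the 4 doubted libraries and 1 to 18 with 1 library left out. In Con-TAC against Con-Sham (0 members) Rpl22 was called higher, at 0.29, with the same total and Rpl36 lower with the length trend removed, 1 each. In Tg-Sham against Con-Sham (0 members) 2 were called with only the libraries compared, Rpl3 at 0.54 and Rpl3l at -0.34. The other 3 contrasts stayed at 0 in every fit run, also with 1 library left out. Reversed were Rpl3l in Con-TAC against Con-Sham (0.019 with the name number), Rpl3 and Rpl3l in Con-TAC-MQ against Con-TAC (-0.54 and 1.24 with the name number, and 0.011 for Rpl3l with the length trend removed) and Rpl3 in Tg-TAC-MQ against Con-TAC-MQ (-0.090 with edgeR and -0.089 with DESeq2); none was called. With 1 library left out, Rpl3 and Rpl3l ranged from -0.24 to 0.15 and from -0.40 to 0.074 in Con-TAC-MQ against Con-TAC, and from -0.012 to 0.35 and from -0.27 to 0.010 in Tg-TAC-MQ against Con-TAC-MQ. The cause was not tested, apart from the smaller number of samples in some fits. The replicate number as a block moved no other count by over 1.5 times (45 members for MitoQ in Tg hearts, 9 in Tg-TAC against Con-TAC). The same total shifted the median of all genes by up to 0.11 and turned the members' median in Con-TAC against Con-Sham to 0.08. Of the values for named genes in fits other than those with 1 library left out, 47 lost the call and 6 reversed. Depth limits the 5 untested members and the retrocopies, whose counts are near 0.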
